A study of Drosophila melanogaster with 10 samples.

Results

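The transcriptome of normal Drosophila melanogaster testes was described from the 5 arrays hybridised with RNA of w1118 males, out of 10 arrays in the series, and every probe set was ranked by its mean log2 signal over these 5 arrays. Of 18952 probe sets in the table, 183 were array controls and were left out, so that 18769 probe sets were ranked. The other 5 arrays, of homozygous tbrd-1 mutants, were not used. The w1118 males carry a mutation of the white eye colour gene and served as the wild type of the study, which set their testes against those of males lacking tBRD-1, a bromodomain protein of spermatocytes. Males were 0 to 2 days old and were kept at 25°C, and testes were dissected in PBS. Each Affymetrix Drosophila Genome 2.0 array received total RNA of its own from whole testes pooled from 25 animals, so that a value is an average over many males and over every cell type that was left on the dissected organ.

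The Drosophila testis is a coiled tube in which germ cells mature along its length. Stem cells at the tip divide next to somatic hub and cyst cells, their daughters grow into primary spermatocytes that transcribe most of the genes needed later, and after meiosis the round spermatids elongate, compact their chromatin and build a very long tail beside a pair of giant mitochondrial derivatives. Many transcripts made in spermatocytes are stored and translated only in spermatids. Testes lie against the seminal vesicles, accessory glands and ejaculatory duct, which supply seminal fluid, and share the abdomen with the gut.

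Of the ranked probe sets, 13647 were paired with 1 gene, 402 with several genes and 4720 with none in the platform annotation. The first class covered 11983 genes, and a gene with several probe sets was represented by its brightest. Signals are linear RMA intensities, and the length, number and affinity of probes differ between probe sets, so that a rank orders signal and not transcript number. Members and gene lists were tied to probe sets by symbol, and a list is described by the genes that had a probe set.

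The signals fell into a large dim group and a long bright tail, as the histogram of mean signal shows. No detection calls came with the values, and a near-background level was therefore set from 33 genes of other organs or stages with a probe set, namely 12 eggshell genes, 20 salivary glue and related larval genes and 1 opsin gene. The 90th percentile of these genes was a log2 signal of 5.57, equal to an intensity of 47.6. At or below this level lay 8249 probe sets, or 44.0%. Between it and log2 8 lay 4602 probe sets (24.5%), from log2 8 to 10 another 3359 (17.9%), from 10 to 12 another 1944 (10.4%), from 12 to 13 another 428 (2.28%), and at log2 13 or more 187 (0.996%). The brightest 5% of probe sets started at a log2 signal of 11.53. Of the 11983 genes, 3103 (25.9%) were near background and 2198 (18.3%) had a log2 signal of 10 or more, and the median gene stood at 7.52.

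**Figure D1:**
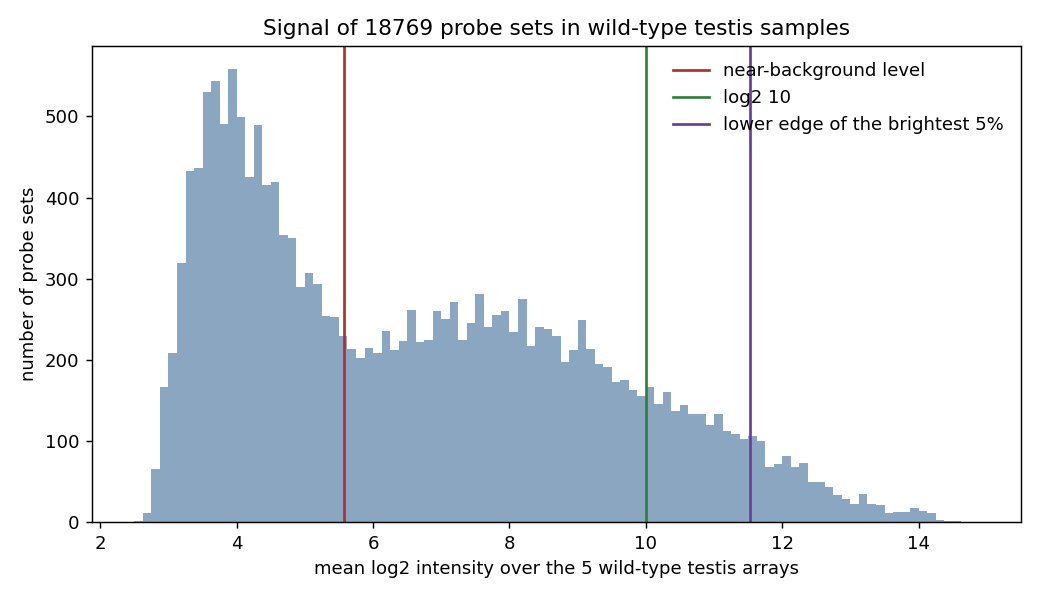
The x axis gives the mean log2 intensity of a probe set over the 5 wild-type arrays and the y axis the number of probe sets per bin. Vertical lines mark the near-background level of 5.57, log2 10, and the lower edge of the brightest 5% at 11.53, and most probe sets lie in the dim peak left of or around the first line.

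The 5 arrays gave nearly the same distribution. RMA brings arrays to a common distribution by quantile normalization. Likeness in medians, extremes and shares near background or of summed intensity thus comes from the processing and says little of the replicates. Array medians lay between 70 and 78, minima at 5 or 6 and maxima between 24171 and 25182, and 43.8% to 44.4% of the probe sets of an array were near background. A small part of the probe sets carried most of the summed intensity of an array. The 100 brightest accounted for 13.2% to 13.6%, all those with a mean of log2 10 or more for 76.2% to 77.5%, and those near background for 1.43% to 1.59%. Array pairs correlated over probe sets with a Pearson r of 0.976 (replicates 3 and 5) to 0.996 (replicates 1 and 3, and 1 and 4), as a description of arrays that share the platform and its probe affinities. No pair had identical files, and between 72 (replicates 1 and 3) and 630 (replicates 3 and 5) probe sets were at least 2-fold apart.

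The top of the order was stable. Of the 100 probe sets with the highest means, each array had 94 to 98 among its own 100, and 85 were in the brightest 100 of all 5 arrays. Their means ran between log2 13.40 and 14.60, none had an intensity under 9489 on any array, and their median SD over arrays was 0.0505 on the log2 scale. With 1 gene were paired 81 of them (79 genes), with several genes 8, including the brightest of all, and with none 11. Among the 81, 39 had a gene known by a CG or CR number only. The gene lists held 32 of the 81: 11 were seminal fluid genes, 6 sperm tail genes of the Mst and don juan families, 6 ribosomal protein genes, 2 sperm leucyl aminopeptidases, 2 odorant-binding proteins and 1 each of 5 other lists.

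CG18628 was the brightest gene, with intensities of 22142, 22725, 23247, 22728 and 23926 on replicates 1 to 5 and a mean log2 signal of 14.49 ± 0.04 (SD, n = 5). CG17376 followed at 14.36 ± 0.02 and CG31226 at 14.34 ± 0.02, both also without a name beyond their number. CR17567 had a mean of 14.22 ± 0.03, CG9016 of 14.21 ± 0.05, CG33340 of 14.19 ± 0.03, CG12699 of 14.13 ± 0.07, CG10252 of 14.10 ± 0.06 and CG31740 of 14.09 ± 0.03. Thus 9 of the 20 brightest genes were unnamed. The gaps between neighbours in this order were about as small as the SDs, so that, from MtnA and CG9016 downwards, single places are not meaningful. MtnA, a metallothionein that binds copper and other metals, had 18974, 17904, 20841, 17412 and 20446, and its SD of 0.11 was the widest of these 20 genes. Also among the 20 was ocn, a testis gene that lies beside janA and janB, with 18474, 19316, 18523, 18421 and 18129 (14.18 ± 0.03).

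Genes for the sperm tail, for sperm chromatin and for sperm leucyl aminopeptidases had the highest medians among the germline lists. All 9 genes of the Mst and don juan list were above log2 10 and 8 were in the brightest 5%, against 6.53% of all genes, and the list had the highest median of all lists, 13.75. Most of these genes encode small proteins of the sperm tail whose messages are stored in spermatocytes. Mst84Db gave 18579, 19408, 18308, 18712 and 19410 (14.20 ± 0.04) and Mst84Dc 18770, 18995, 18679, 18156 and 19453 (14.20 ± 0.04). Mst87F, the best studied of the group, gave 16812, 17270, 15835, 17033 and 16411 (14.02 ± 0.05). These 3 genes varied by a few percent between arrays, and Mst98Ca varied even less, with 14727, 14750, 14779, 14817 and 14445 (13.84 ± 0.01). At the lower end of the list were djl at 12.43 ± 0.22 and dj, which encodes don juan, a basic protein of the sperm tail, at 10.40 ± 0.18. The dj intensities were 1350, 1388, 1092, 1517 and 1437, lowest on replicate 3.

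All 8 sperm chromatin genes were also in the brightest 5%, with a median of 12.60. These encode proteins that replace histones when the spermatid nucleus is compacted. The brightest was Mst77F, a linker histone-like protein, with 16798, 17221, 16102, 17079 and 15710 (14.02 ± 0.06). The HMG-box genes tHMG1 and tHMG2 reached 13.30 ± 0.14 and 12.98 ± 0.13. The protamine genes ProtA, with 6514, 6719, 5483, 6819 and 6358 (12.63 ± 0.13), and ProtB, with 6254, 6022, 5243, 6503 and 5928 (12.54 ± 0.12), were nearly level, and their ranges overlapped. They are near-identical copies, so that part of the signal of each may come from the other. Mst33A stood at 12.56 ± 0.17, and lowest were Prtl99C, a protamine-like protein, at 11.61 ± 0.11, and the transition protein-like Tpl94D at 11.59 ± 0.14.

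The 4 sperm leucyl aminopeptidases measured, which are major proteins of the mature sperm, had a median of 13.33. S-Lap7 was at 13.91 ± 0.04, S-Lap8 at 13.44 ± 0.09, S-Lap2 at 13.22 ± 0.08 and S-Lap5 at 11.07 ± 0.08. The cup and comet genes, whose transcripts gather at the ends of elongating spermatids and which are transcribed after meiosis, were more spread out, with a median of 10.88 over 17 genes and 7 in the brightest 5%. The brightest of them, w-cup, gave 12654, 12818, 12939, 12549 and 13305 (13.65 ± 0.03), followed by sowi at 12.81 ± 0.08, boly at 12.53 ± 0.04 and schuy at 11.93 ± 0.07. The dimmest, s-cup, gave 93, 103, 96, 101 and 89 (6.59 ± 0.09), still above the near-background level. None of the 17 was near background.

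Individualization, in which a bundle of spermatids is separated and stripped of cytoplasm with the help of caspases, was represented by 8 genes with a median of 9.31 and a wide range. Cul3, the scaffold of a ubiquitin ligase, was at 12.38 ± 0.06 and the F-box gene ntc at 11.71 ± 0.15, while klhl10, which recruits substrates to Cul3 in spermatids, was at 7.67 ± 0.29. The initiator caspase gene Dronc was at 7.78 ± 0.11 and its activator Dark at 6.90 ± 0.04. The double-stranded RNA-binding protein gene blanks (11.63 ± 0.19) and nsr (10.07 ± 0.16) were also above log2 10.

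Among cytoskeletal genes, betaTub85D, the tubulin of meiotic spindles and the sperm axoneme, stood first with 12521, 11833, 12533, 12017 and 10594 (13.54 ± 0.10). The more general betaTub56D reached 11.64 ± 0.08. For betaTub60D, a somatic isotype, intensities were 724, 820, 544, 721 and 1274, and its SD of 0.45 was more than 3 times the median SD of all genes, 0.138. The maternal alphaTub67C (4.83 ± 0.11) was near background. So was alphaTub84D, with 18 on all 5 arrays, although this gene encodes a tubulin of most cells. Kinesin and dynein heavy chain genes had a median of 7.93 over 15 genes, and their brightest member was the kinesin gene Klp59C (11.33 ± 0.05).

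Y-linked fertility genes, several of which are transcribed in spermatocytes as very long messages, had a median of 6.51, below that of all genes, over 7 genes. ARY, an aldehyde reductase gene, gave 513, 593, 432, 565 and 464 (8.99 ± 0.19) and Pp1-Y2, a phosphatase gene, 461, 550, 450, 513 and 436 (8.91 ± 0.14). At the other end, kl-5, an axonemal dynein heavy chain needed for fertility, gave 8, 11, 10, 11 and 9 (3.28 ± 0.20), and kl-3, another, 34, 28, 26, 25 and 17 (4.67 ± 0.37). Both dynein genes thus lay in the range of the odorant receptors in these testes, and ORY (7.24 ± 0.33), kl-2 (6.51 ± 0.15) and Ppr-Y (6.17 ± 0.17) lay between.

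**Figure D2:**
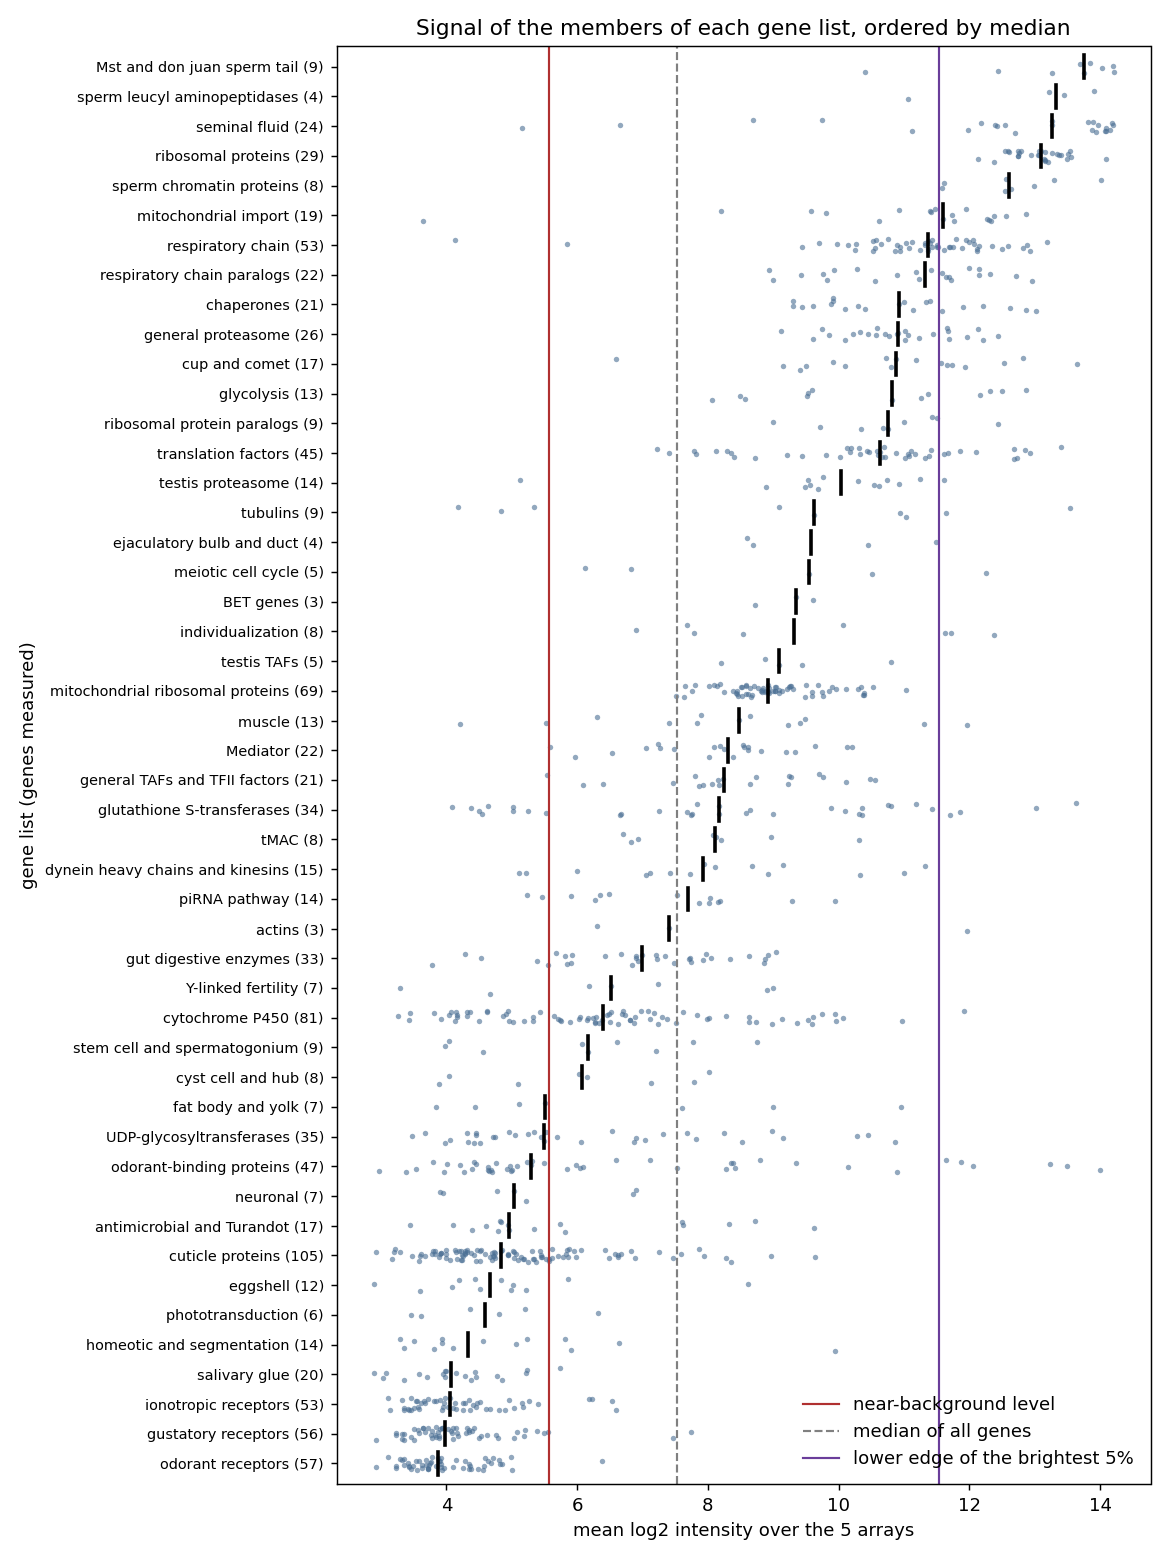
Each row is a gene list with the number of genes measured, each point a gene at its mean log2 intensity over the 5 arrays (x axis), and each black bar the list median. Rows run in the order of their medians, between 13.75 for the Mst and don juan sperm tail genes at the top and 3.87 for the odorant receptors at the bottom, with lines at the near-background level, at the median of all genes and at the lower edge of the brightest 5%.

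Seminal fluid genes were as bright as sperm genes in these testis samples. Proteins of this class are made in the accessory glands and passed to the female with sperm. Of 24 genes measured, 20 were above log2 10 and 19 in the brightest 5%, and the median was 13.26. Acp53C14a gave 18785, 18157, 18940, 18434 and 19430 (14.19 ± 0.04), and Mst57Da 19048, 17712, 18563, 18210 and 19301 (14.18 ± 0.05). Acp53C14b (14.15 ± 0.03), Acp98AB (14.09 ± 0.05), the protease inhibitor gene Acp62F (14.08 ± 0.04) and Acp53Ea (14.07 ± 0.04) were also among the 20 brightest genes. All 5 arrays had these transcripts at nearly the same level. All probe sets at log2 13 or more had a median SD of 0.0723, so that such steadiness was common at this brightness. SP, the sex peptide that changes female behaviour after mating, gave 15937, 14985, 15276, 15585 and 16453 (13.93 ± 0.05), and the sperm storage protein gene Acp36DE gave 14457, 13574, 15037, 14398 and 14961 (13.82 ± 0.06). The other 4 were Sfp38D at 9.74 ± 0.16, named after its values were seen, the marker gene Acp95EF at 8.69 ± 0.11, Sfp65A, near background at 5.15 ± 0.14, and Sfp24Bb, described below with the genes that varied. Of 6 accessory gland markers, all but Acp95EF were thus bright in every array of a tissue labelled as testis, with means over the 6 of 12.79 to 12.92 per array, against 13.22 to 13.37 for 11 spermatid markers. Whether glands were attached to the testes was not tested.

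Several odorant-binding protein genes were bright as well. This family of small secreted carriers is best known from antennae, and its median of 5.29 was below the near-background level, with 26 of 47 genes there. However, 6 of the 47 (12.8%, against 6.53% of all genes) were in the brightest 5%. Obp44a gave 15612, 17657, 15139, 16113 and 17221 (13.99 ± 0.09) and Obp51a 12431, 10120, 11922, 11591 and 11973 (13.50 ± 0.11). Obp99a was at 13.23 ± 0.14 and Obp56f at 12.06 ± 0.09, while Obp57e, at the bottom, was at 2.96 ± 0.09.

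Genes for protein synthesis were bright and steady. All 29 ribosomal protein genes measured were in the brightest 5% on their brightest probe sets. Their median was 13.10, and they ranged from 12.12 for RpL17 to 14.09 for RpL41. RpS7, RpL3, RpS30 and RpS29 each also had a far dimmer probe set. The gaps ran between 5.26 log2 units for RpS29 and 7.26 for RpS7. RpL41 gave 17661, 17404, 16948, 17419 and 17505, and RpS29 gave 12409, 12213, 11999, 11677 and 11865 (13.55 ± 0.03). The largest SD in this list was 0.133, below the median SD of all genes. Its median SD of 0.0867 lay between those of all probe sets at log2 12 to 13 (0.102) and at 13 or more (0.0723). The list was thus about as steady as other probe sets of that brightness. The 9 paralogs of ribosomal proteins, several of which are known from the germline, were about 2 log2 units dimmer, with a median of 10.75 and a median SD of 0.195. Their brightest member, RpL10Aa, was at 12.44 ± 0.06 and their dimmest, RpS28a, at 9.0 ± 0.30 with 470, 558, 389, 501 and 686. Translation factors had a median of 10.63 over 45 genes. The brightest were eEF5 (13.41 ± 0.04) and eIF1 (12.93 ± 0.09), and next was eIF4E3, a cap-binding protein needed in male meiosis, with 7121, 7967, 6732, 7411 and 7597 (12.84 ± 0.09). A relative, eIF4E6, was at 7.40 ± 0.30. Mitochondrial ribosomal protein genes were dimmer, with a median of 8.92, none of 69 near background, 8 at log2 10 or more and none in the brightest 5%. Their range ran between 7.52 for mRpL45 and 11.04 for mRpS21.

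Mitochondrial genes were bright in both their general and their duplicated forms. The giant mitochondrial derivatives run along the whole sperm tail, and many respiratory chain subunits have a second gene copy in the fly. The 53 general respiratory chain genes had a median of 11.37 with 20 in the brightest 5%, and the 22 paralogs a median of 11.32 with 10 in the brightest 5%. Among the general genes ND-MLRQ was brightest with 9837, 8462, 9691, 8926 and 9547 (13.18 ± 0.09), and among the paralogs COX4L with 7811, 8382, 7424, 7958 and 8245 (12.96 ± 0.07), followed by COX7AL at 12.71 ± 0.08. The paralog ATPsynbetaL stood lower at 8.93 ± 0.09. A general subunit gene, UQCR-11, was near background with 19, 18, 16, 19 and 16 although its complex is present in all cells. Import genes had a median of 11.59 over 19 genes, led by tomboy20, a paralog of the Tom20 receptor, at 12.86 ± 0.08. Only Tim17a2 (3.64 ± 0.20) was near background in that list. Glycolytic genes had a median of 10.82 over 13 genes. Tpi, triosephosphate isomerase, gave 7506, 7318, 7422, 7623 and 7404 (12.86 ± 0.02). The testis hexokinase gene Hex-t2 was at 12.32 ± 0.06, with 4961, 5216, 5240, 5272 and 4830, and the general hexokinase gene Hex-A at 8.06 ± 0.19, with 295, 301, 267, 262 and 215, so that their ranges were far apart.

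The proteasome showed the same pairing of general and testis forms. The 26 general subunit genes had a median of 10.90, between 9.12 for Rpn1 and 12.43 for Prosbeta3, and the smallest spread of the larger lists, with a median SD of 0.0623 and array means within 10.87 and 10.94. The 14 testis paralogs had a median of 10.03. The brightest, Prosalpha6T, a subunit of the sperm proteasome, gave 2977, 3380, 2909, 3271 and 3207 (11.62 ± 0.09), and the dimmest, Prosbeta4R2, was near background at 5.13 ± 0.08. Chaperone genes had a median of 10.92 over 21 genes, with the mitochondrial Hsp60 form Hsp60C at 13.02 ± 0.11, the cytosolic Hsc70-4 at 12.86 ± 0.09 and Hsp60B, which is needed for sperm individualization, at 12.21 ± 0.24 with 5125, 4701, 5229, 5292 and 3557, lowest on replicate 5.

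Regulators of the spermatocyte programme had intermediate signals, well below the structural genes they are known to act on. The testis TAFs, which are spermatocyte forms of subunits of the general factor TFIID, were all above background and had a median of 9.08. Taf12L gave 1669, 2106, 1441, 1723 and 2017 (10.79 ± 0.22), sa gave 658, 860, 595, 754 and 651 (9.45 ± 0.21), can gave 493, 578, 457, 601 and 602 (9.08 ± 0.18), nht 426, 560, 379, 474 and 525 (8.87 ± 0.23), and mia 290, 326, 254, 345 and 267 (8.20 ± 0.19). Each of the 5 genes was lowest on replicate 3. The general TAF and TFII genes had a median of 8.24 over 21 genes, between 5.54 for Taf7, the only one near background, and 10.56 for TfIIB.

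The 8 genes of tMAC, the testis form of a Myb-containing complex that acts upstream of the testis TAFs, had a median of 8.11. The brightest was mip40, a subunit also found outside the testis, with 1232, 1500, 1084, 1440 and 1150 (10.31 ± 0.20), followed by topi at 8.97 ± 0.08, tomb at 8.20 ± 0.22, vis at 8.13 ± 0.30 and wuc at 8.08 ± 0.28. At the lower end were aly with 111, 138, 98, 126 and 141 (6.93 ± 0.22), comr with 104, 126, 97, 124 and 117 (6.82 ± 0.16), and achi at 6.70 ± 0.19. The 3 lower genes were close to one another and their ranges overlapped. The neighbours achi and vis are near-identical copies and may share signal.

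The bromodomain genes of the testis had similar signals. tbrd-1 itself gave 758, 975, 692, 881 and 630 (9.60 ± 0.26), tbrd-2 gave 635, 899, 572, 735 and 489 (9.35 ± 0.34), and tbrd-3 gave 365, 502, 346, 447 and 461 (8.71 ± 0.23). All were highest on replicate 2, and tbrd-1 and tbrd-2 were lowest on replicate 5. The SD of tbrd-2, 0.34, was the largest among the testis TAF, tMAC and bromodomain genes. Mediator subunits, which link activators to RNA polymerase, had a median of 8.31 over 22 genes, between 5.59 for MED16 and 10.20 for MED26. None had a mean near background, but MED16 gave 46, 51, 45, 47 and 52, on both sides of the level of 47.6. Taf7, counted as near background above, did so too with 46, 54, 42, 46 and 45.

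Genes of meiosis were spread widely, with a median of 9.55 over 5 genes, and those of the early germline had lower medians. The translational regulator bol was bright on its best probe set, with 5306, 4681, 5095, 5187 and 4336 (12.26 ± 0.12), and the Cdk inhibitor gene rux was at 10.51 ± 0.07. CycB3 was at 9.55 ± 0.11, and CycB with 105, 113, 103, 132 and 116 (6.82 ± 0.14) and the Cdc25 phosphatase gene twe with 65, 74, 62, 93 and 60 (6.13 ± 0.26) were dim. For 9 genes of stem cells and spermatogonia the median was 6.16. The brightest was bgcn, which limits spermatogonial divisions, at 8.74 ± 0.16, while its partner bam gave 65, 78, 52, 90 and 79 (6.16 ± 0.31), and the germline helicase gene vas 23, 28, 21, 22 and 24 (4.55 ± 0.16). The piRNA pathway, which silences transposons in germ cells, had a median of 7.69 over 14 genes, between 5.23 for tej and 9.95 for squ, which gave 923, 1195, 768, 1119 and 995. Both medians were close to or below that of all genes, 7.52, although bgcn and squ were above it.

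The somatic cells of the testis were represented by 8 genes with a median of 6.08. The cyst cell gene eya gave 239, 288, 199, 319 and 268 (8.02 ± 0.26). The transcription factor gene tj of early cyst and hub cells gave 15, 17, 15, 17 and 18 (4.03 ± 0.12), and upd1, the signal sent by the hub, gave 14, 16, 13, 15 and 16 (3.88 ± 0.13). In whole-organ RNA, few cells of a type and little RNA per cell cannot be told apart. As a check of the label, 8 spermatocyte markers were all above background, and all 11 spermatid markers with a probe set were above log2 10. Near background were 1 of 3 early germline and 2 of 4 hub and cyst cell markers. Of the other organs, 4 of 6 fat body, 1 of 3 neuronal, 1 of 6 gut, 0 of 4 muscle, 0 of 6 accessory gland and 0 of 3 ejaculatory bulb markers were near background. These counts use means over the arrays, which hide arrays without signal. The mean of the gut markers was 5.28 on replicate 2 and 4.63 on replicate 5, under the level of 5.57. On replicates 1 and 5, EbpII (32 and 28) and Ebp (48 and 52) were below or close to the level of 47.6. EbpIII was at 2451 or more on every array.

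The middle of the order overlapped with the dim end. The 40th to 60th percentiles spanned log2 signals of 5.20 to 7.22, so that their lower edge lay under the near-background level, and the median SD there, 0.164, was the widest of the ranges described. Nearest to the median rank were ppk10, an ion channel subunit gene, at 6.23 ± 0.20, tai, a nuclear receptor coactivator gene, at 6.23 ± 0.20, mldr at 6.23 ± 0.06, CNT2, a nucleoside transporter gene, at 6.23 ± 0.69, and CG10936 at 6.23 ± 0.15. Their means were equal to the second decimal, but their spreads were not. CNT2 gave 100, 51, 148, 68 and 47, whereas mldr gave 78, 79, 73, 74 and 72.

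Detoxification families spread across the whole range. Glutathione S-transferases had a median of 8.17 over 34 genes with 4 in the brightest 5%, led by GstS1 with 11987, 13977, 11753, 12983 and 13052 (13.64 ± 0.10) and GstD1 at 13.01 ± 0.08. Cytochrome P450 genes had a median of 6.39 over 81 genes, with 26 near background. Only Cyp6d5 (11.92 ± 0.12), Cyp312a1 (10.96 ± 0.13) and Cyp4e2 (10.06 ± 0.43) were above log2 10. UDP-glycosyltransferase genes had a median of 5.49, with 19 of 35 near background and Ugt50B3 at the top with 10.86 ± 0.22. Genes of fat body and yolk were mostly dim, but apolpp, the precursor of the main lipid carrier of the blood, gave 1857, 2029, 1872, 2007 and 2207 (10.96 ± 0.10), and the yolk protein gene Yp3 gave 245, 528, 778, 550 and 627 (9.0 ± 0.63). Among 17 genes for antimicrobial peptides and stress peptides, 10 were near background and the brightest was the antifungal peptide gene Drs with 974, 859, 314, 713 and 1613 (9.62 ± 0.86), highest on replicate 5 and lowest on replicate 3.

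Near background were, above all, odorant, gustatory and ionotropic receptors, and also most cuticle protein and most homeotic and segmentation genes. The eggshell, glue and opsin genes set the near-background level, so that most of them together lay at or below it by construction. Their place there is therefore not a result of the ranking. Of the odorant receptor genes 56 of 57 were near background, with a median of 3.87. So were 54 of 56 gustatory (median 3.98) and 49 of 53 ionotropic receptor genes (median 4.05), against 25.9% of all genes. The receptors above the level were few. Gr43a, a fructose receptor, gave 247, 154, 222, 211 and 251 (7.74 ± 0.28), and Gr32a, a receptor for bitter compounds and a male pheromone, gave 154, 198, 146, 209 and 188 (7.47 ± 0.23). Both stayed above the level on every array, and so did Or59b with 84, 80, 94, 79 and 78 (6.37 ± 0.11). Of the ionotropic receptors, Ir100a (6.59 ± 0.12), Ir85a (6.54 ± 0.20), Ir41a (6.23 ± 0.17) and Ir76a (6.18 ± 0.17) exceeded it.

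Cuticle proteins were near background for 77 of 105 genes, with a median of 4.84, and the brightest was Cpr51A at 9.64 ± 0.17. Of 14 homeotic and segmentation genes 10 were near background, with a median of 4.33. Of the 4 others the brightest was the pair-rule gene prd, which is also known from the male accessory gland, with 978, 974, 989, 1021 and 961. Its mean of 9.94 ± 0.03 made it one of the steadiest of the moderately bright genes. Next in this list were ftz at 6.63 ± 0.34, kni at 5.90 ± 0.21 and odd at 5.82 ± 0.56. Of 7 neuronal genes 5 were near background, and the brightest was brp at 6.91 ± 0.35. Among the genes that set the level, Cp15, a chorion protein gene of the ovary, stood far above it with 370, 424, 312, 424 and 450 (8.62 ± 0.21), and Cp18 (5.86 ± 0.11), the glue-type gene Eig71Ee (5.73 ± 0.13) and the opsin gene Rh7 (5.66 ± 0.14) slightly above. The dimmest genes were grn, with 6 on every array (2.58), CG34026 (2.63 ± 0.10), beat-Ic (2.72 ± 0.12), mAChR-B (2.76 ± 0.10) and lncRNA:CR43461 (2.80 ± 0.15). Values are whole numbers, and at an intensity of 6 one unit is 0.22 on the log2 scale, so that SDs at this end are limited by rounding.

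Most probe sets were steady over the 5 arrays. The median SD of log2 signal was 0.136, 87.9% of probe sets had an SD under 0.25, and the 90th percentile was 0.271. The spread fell towards the bright end, with a median SD of 0.131 near background, 0.161 between there and log2 8, 0.142 from 8 to 10, 0.119 from 10 to 12, 0.102 from 12 to 13 and 0.0723 at 13 or more. The steadiest genes above background and below log2 13 were brv2 with 161, 162, 160, 162 and 161, CG10365 with 5972, 5957, 6014, 5934 and 5940, and Flad1, an enzyme gene of flavin metabolism, with 254, 258, 258, 258 and 257. Got1, an aspartate aminotransferase gene (11.86 ± 0.01), CG43050 (9.54 ± 0.01) and the mitochondrial cristae gene Mic26-27 (11.67 ± 0.01) completed these 6.

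**Figure D3:**
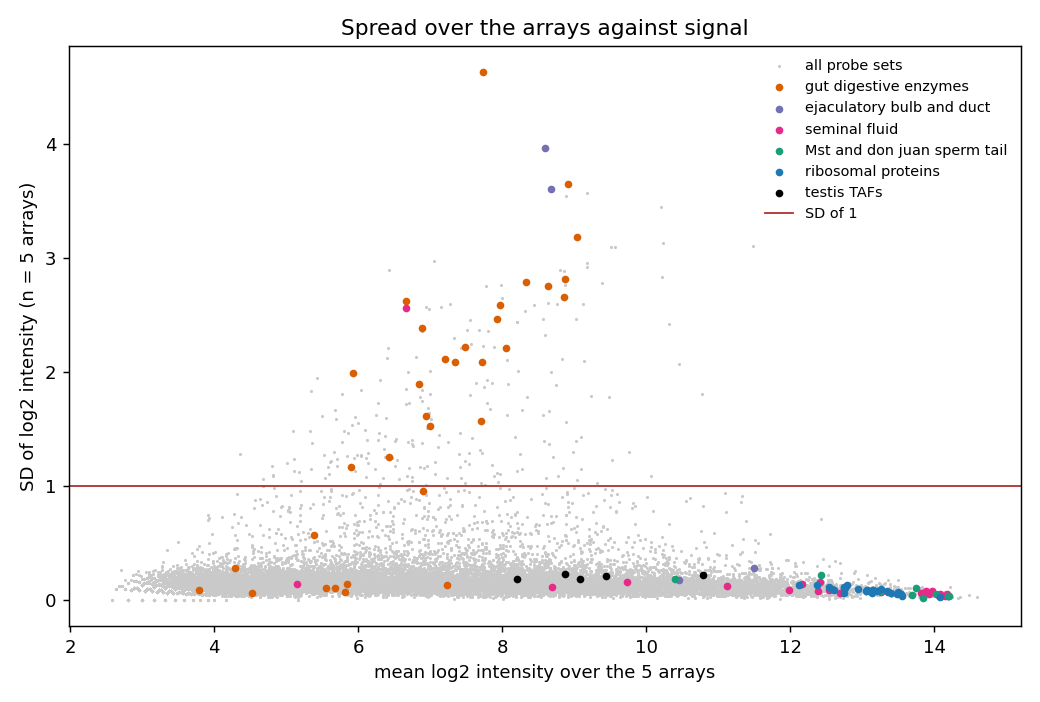
The x axis gives the mean log2 intensity of a probe set over the 5 arrays and the y axis its SD (n = 5). Grey points are all probe sets, coloured points the genes of 6 lists, and the line marks an SD of 1, above which lie gut enzyme genes, 2 ejaculatory bulb genes and 1 seminal fluid gene, while sperm tail and ribosomal protein genes lie at the bright, steady end.

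An SD of 1 or more, that is a typical deviation of at least 2-fold, was found for 234 probe sets (1.25%), and an SD of 2 or more for 73. Their variation followed few patterns. Of the 234, 206 were above their own mean on replicates 1 and 3, with (157) or without (49) replicate 4, and 18 on replicates 2 and 3, and 10 in other ways. On replicate 3 lay the highest value of 211, and the lowest values lay on replicate 5 for 145 and on replicate 2 for 66. Paired with 1 gene were 212 of them (209 genes), and 31 of these were in any of the lists. Only 8 had a mean of log2 10 or more, but 67 reached log2 10 on at least 1 array.

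The first pattern was shared by most digestive enzymes of the gut. These made up 20 of its 157 probe sets with replicate 4 and 3 of the 49 without it. Of 33 digestive enzyme genes, 23 had an SD of 1 or more, against 209 of 11983 genes. The mean log2 signal of the list was 8.35, 5.51, 8.46, 7.54 and 4.89 on replicates 1 to 5. Jon99Fi, a Jonah serine protease of the midgut and the most variable gene, gave 4474, 7, 3311, 616 and 7 (SD 4.63). Jon65Aiv gave 3826, 28, 4083, 1783 and 34, and Jon65Aiii 3524, 49, 3994, 1174 and 50. Replicates 2 and 5 were thus at or close to the near-background level for all 3, and replicates 1 and 3 were above log2 10. The proteases yip7 (4005, 39, 4737, 2239 and 39) and CG10472 (5888, 688, 7401, 2384 and 36), CG5506 (3166, 38, 3893, 1783 and 28) and the gut lipase mag (536, 14, 719, 558 and 14) were likewise higher on replicates 1, 3 and 4 than on 2 and 5, though CG10472 stayed at 688 on replicate 2. Acbp5, an acyl-CoA-binding protein gene, was the brightest of these genes with 11490, 2099, 13976, 7438 and 77, and CG10911 (6152, 821, 7634, 2677 and 22) and CG8997 (3161, 392, 3819, 1951 and 22) were like it in that replicate 2 was intermediate and replicate 5 near background.

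The pattern was not limited to secreted enzymes. Genes chosen after their values were seen, as they are known from the gut wall, were also higher on replicates 1, 3 and 4 than on 2 and 5. mesh, a protein of the smooth septate junctions that seal the gut epithelium, gave 504, 134, 740, 347 and 130 (SD 1.13), its junction partner Tsp2A 377, 89, 658, 223 and 85 (SD 1.29), and hoka, another junction protein, 620, 121, 776, 366 and 120 (SD 1.28). AstC, a peptide hormone of neurons and of gut endocrine cells, gave 598, 65, 724, 318 and 10 (SD 2.60). On their brightest probe sets the junction genes kept signals of 85 to 134 on replicates 2 and 5, above the near-background intensity of 47.6. The dimmest probe set of mesh was 4.43 log2 units lower, and the mean over all probe sets of mesh was 5.99. Of 8 gut markers 6 had a probe set, and their array means were 9.70, 5.28, 9.69, 8.28 and 4.63. The part of gut RNA in the signal of other genes was not tested.

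**Figure D4:**
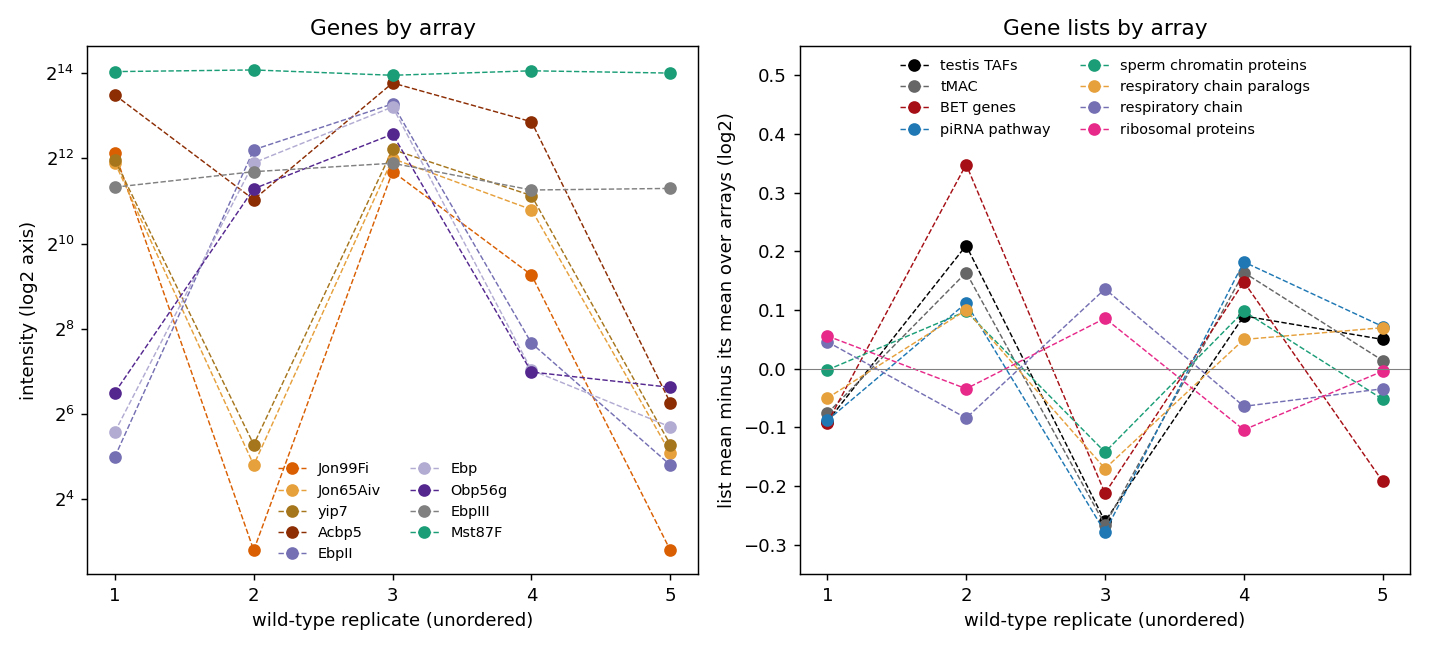
Left, intensity on a log2 axis for 9 genes on each wild-type replicate, with gut genes in orange and brown (high on replicates 1, 3 and 4) and ejaculatory bulb genes in purple (high on replicates 2 and 3) beside the steady EbpIII and Mst87F. Right, mean log2 signal of 8 gene lists minus the mean of the list over arrays, with the testis TAF, tMAC, piRNA and sperm chromatin lists lowest on replicate 3, and dashed lines only joining the points of a gene or list.

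The second pattern had 18 probe sets and was led by products of the ejaculatory bulb, which forms the mating plug. EbpII gave 32, 4716, 9944, 203 and 28 (SD 3.97) and Ebp gave 48, 3815, 9469, 131 and 52 (SD 3.61). Obp56g, a protein of the mating plug, gave 91, 2502, 6079, 127 and 99 (SD 2.90), and Sfp24Bb 25, 472, 1009, 34 and 26 (SD 2.57). Elo68alpha, a fatty acid elongase gene of the bulb that was picked after its values were seen, gave 17, 562, 1032, 24 and 20 (SD 2.89). All 5 were highest on replicate 3 and next on replicate 2. By contrast EbpIII, the third gene of the Ebp name, gave 2566, 3302, 3788, 2451 and 2515 (SD 0.28), with the same replicates highest but a range of less than 2-fold, and Gld, glucose dehydrogenase of the ejaculatory duct, gave 1522, 1128, 1497, 1482 and 1404 (SD 0.18).

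Accessory gland genes followed neither pattern. The means of the 24 seminal fluid genes, which include Sfp24Bb, were 12.30, 12.36, 12.47, 12.26 and 12.35 on replicates 1 to 5, and those of 6 accessory gland markers 12.84, 12.79, 12.84, 12.82 and 12.92. A few other genes varied in ways of their own. Genes of muscle, a tissue that also sheathes the testis, had a median of 8.48 over 13 genes with 2 near background, and Mlc1, a myosin light chain gene, was at 11.30 ± 0.11. Act88F, the actin of indirect flight muscle, gave 141, 153, 44, 375 and 385 (SD 1.28), whereas Act87E, a muscle actin that is nearly identical to other actins and may share their signal, gave 4028, 3924, 3937, 4372 and 3815 (SD 0.07). Smvt, a vitamin transporter gene that was also picked after its values were seen, gave 803, 115, 1004, 284 and 484 (SD 1.26) and was above its mean on replicate 5 as well as on 1 and 3.

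Apart from the gut and ejaculatory bulb lists, list means differed between arrays by at most 1.38 log2 units, for the actins. Of 48 lists with at least 3 genes, 21 had their lowest array mean on replicate 3, among them all 5 of spermatocyte transcription, all 3 of the germline before and during meiosis and 2 of 6 of spermatids, but also lists of other tissues such as actins, muscle, cuticle proteins and gustatory receptors. The other 4 spermatid lists (cup and comet, individualization, Y-linked fertility and sperm leucyl aminopeptidases) were lowest on replicate 5. All 3 actins were also in the muscle list, and Act88F, in both, had its lowest intensity, 44, on replicate 3. The mean of 4 muscle markers, however, was highest on replicate 3 (9.35, 9.14, 9.49, 9.31 and 9.06). Lowest on replicate 3 were the testis TAFs (9.19, 9.49, 9.02, 9.37 and 9.33), tMAC (7.94, 8.18, 7.75, 8.18 and 8.03), the bromodomain genes (9.13, 9.57, 9.01, 9.37 and 9.03) and the piRNA genes (7.25, 7.45, 7.06, 7.52 and 7.41). Sperm chromatin genes (12.65, 12.75, 12.51, 12.75 and 12.60) and respiratory chain paralogs (11.01, 11.16, 10.89, 11.11 and 11.13) had the same low array. The general respiratory chain (11.20, 11.07, 11.29, 11.09 and 11.12) and ribosomal protein lists (13.11, 13.02, 13.14, 12.95 and 13.05) were instead highest on replicate 3. The gut and bulb lists were also highest there, but the gut list was nearly level on replicates 3 and 1 (8.46 and 8.35). A link between these lists was not tested. RMA gives all arrays a common distribution, and its part in the small differences between array means was not tested. For 27 of the 48 lists the 5 array means lay within 0.25 log2 units.

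Features that the ranking did not use differed along the order. By chromosome arm, the median gene had a log2 signal of 7.92 on 2L, 7.60 on 2R, 7.57 on 3L and 7.50 on 3R, and of 7.12 on the X. Among 1873 X-linked genes 49 (2.62%) were in the brightest 5% of probe sets, against 195 of 2205 (8.84%) on 2L, 166 of 2428 (6.84%) on 2R, 150 of 2344 (6.40%) on 3L and 219 of 2974 (7.36%) on 3R. The share near background was alike, with 26.4% on the X and 22.7% to 27.4% on these autosome arms. The 65 genes of chromosome 4 had a median of 6.41 and none in the brightest 5%. No test was made of these shares, as genes are not replicates.

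The share of genes known by a number only was not even along the order. They made up 41.6% of all probe sets paired with 1 gene, 40.8% of those near background, 52.6% of the brightest 5% and 54.0% of those from log2 12 to 13, but 41.7% of those at log2 13 or more. Long noncoding RNA genes were mostly dim, with a median of 5.0 and 48 of 77 near background, compared with 25.3% of 11791 protein-coding genes. The 2 brightest of these 77, named here after their values were seen, were as bright as ribosomal protein genes, namely lncRNA:CR32690 with 8103, 8485, 7655, 8522 and 7363 (12.97 ± 0.09) and lncRNA:CR9284 with 7431, 10109, 6259, 7593 and 7203 (12.90 ± 0.25). CR17567, brighter at 14.22, was not classed as a long noncoding RNA gene and is not counted among the 77. Probe sets without a gene in the annotation had a median of 4.08 and 81.0% of them were near background. Still, 214 of the 4720 were at log2 10 or more.

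Probe sets of the same gene often disagreed, which limits what a rank says of a gene. For 1094 genes with more than 1 probe set, the median gap between the brightest and the dimmest was 1.78 on the log2 scale, 30.3% had a gap under 1 and 28.2% a gap of 3 or more. The largest was 10.49, for CG32652, named for this gap, at 13.89 on its brightest and 3.40 on its dimmest probe set. Of 124 such genes with a brightest probe set at log2 10 or more, 48 had another near background. bol was one of them, with 12.26 on its brightest and 3.74 on its dimmest probe set, and Taf12L, with 10.79 and 4.18, was another. Other genes described above were also dimmer as a mean over their probe sets. RpS29 fell to 11.68, Cul3 to 9.13, Dark to 5.50, brp to 4.89, Ir41a to 4.87 and kl-2 to 4.14. A gene with a single dim probe set, such as kl-5, UQCR-11, vas or alphaTub84D, can therefore not be called unexpressed.

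**Figure D5:**
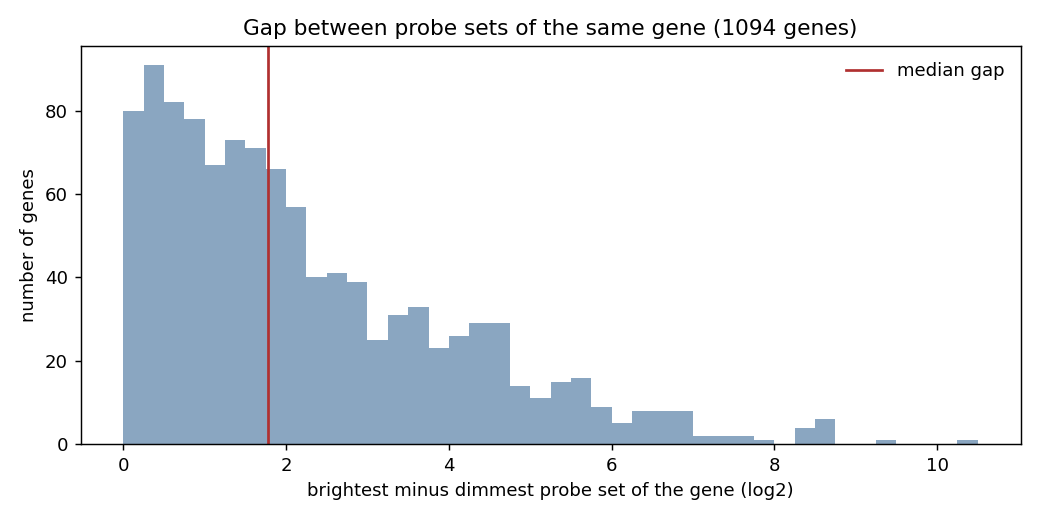
The x axis gives, for each of 1094 genes with more than 1 probe set, the mean log2 signal of its brightest minus that of its dimmest probe set, and the y axis the number of genes per bin. The line marks the median gap of 1.78, and the longest gap is 10.49.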

How the data were processed

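RNA of testes was hybridised to Affymetrix Drosophila Genome 2.0 arrays, and the 5 wild-type arrays were described here. The authors deposited linear intensity values, rounded to whole numbers. RMA (background correction, quantile normalization between arrays and median polish over the probes of a probe set) and the Affymetrix Expression Console are named in the submitters' processing notes, in versions that were not given in the sources used here. Quantile normalization gives all arrays 1 distribution and hides differences in total RNA. Control probe sets were left out, log2 was taken without an offset, and the mean and SD were computed over the arrays with Python 3.11.15, numpy 2.4.6 and pandas 2.3.3. Probe sets were named through the platform annotation, and 13544 symbols were updated with a RefSeq table of assembly Release 6. Only probe sets with 1 gene were named. No groups were compared and no test was made. The replicates are labelled biological replicates, and their number limits the precision.

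Genes named were the 20 brightest, the 5 nearest the median rank, the 5 dimmest, the 12 with the largest SD among those reaching log2 8, the 6 with the smallest SD above background and below log2 13, list members (all of lists of up to 10 genes, otherwise the 4 brightest, the 2 dimmest and the most variable) and cell type markers, and others are said to be chosen after their values were seen. Members and lists were chosen with earlier results of these data known. Alternatives were other near-background levels, each array left out, median-centred arrays, arithmetic means or medians, control probe sets kept, 1 probe set per gene, near-background probe sets left out and the mean over the probe sets of a gene. The code for these counts was checked on simulated arrays with known means and SDs. The dosage compensation RNA list had no probe set with 1 gene. Sequences were not used here.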

Additional observations from a re-analysis of the deposited data

Results flagged for a closer look

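Of 249 sets of 5 array values looked at (48 list means and the genes named), 13 held an array that stood apart, in that its gap to the nearest other array, divided by the range of all 5, was above 0.71. For continuous normal values, chance alone gives such a gap in about 1 of 20 sets, and 13 of 249 is close to that share. The values here are whole numbers, so that in the dimmest genes a difference of 1 unit can give such a gap. Some of the genes were also named for their SD. Replicate 5 was the array in 8 of the 13, replicates 1 and 2 in 2 each and replicate 4 in 1.

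On replicate 5 the mean log2 signal of cuticle protein genes was 5.20, against 5.04 to 5.08 on the other arrays, and that of eggshell genes 5.02, against 4.79 to 4.83. The dim Eig71Ee was at 62, against 50 to 53, Obp57e at 7, against 8, and CG34026 at 7, against 6. The 3 bright genes among the 8 were lower there. CG12699 had 16396, against 18179 to 18484, Mst98Ca 14445, against 14727 to 14817, and Hsp60C 7285, against 8377 to 8707.

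On replicate 2, Gld of the ejaculatory duct had 1128, against 1404 to 1522, and alphaTub67C 25, against 29 or 30. On replicate 1, Flad1 had 254, against 257 or 258, and mAChR-B 6, against 7. On replicate 4, mRpL45 had 176, against 184 to 187. Apart from Gld, CG12699 and Hsp60C, the gaps of single genes were a few percent or under 10 intensity units.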

How the results depend on the processing

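No paired analysis was possible because the results come from no test and 1 group of arrays was described. Without each array in turn, 8161 to 8304 probe sets were near background, 2540 to 2580 at log2 10 or more and 197 to 281 at an SD of 1 or more, the median SD was 0.117 to 0.141, and 98 to 100 of the brightest 100 remained. The mitochondrial import median, 11.59 on all arrays, ran between 11.53 without replicate 5 and 11.65 without replicate 3. Counting genes by 1 probe set each left 3103 near background, as fewer items were counted. Median-centred arrays raised the median SD to 0.163. Kept control probe sets, other means, medians and both other near-background levels kept each count within 1.5 times. However, the count near background fell from 8249 to 7009 at a fixed log2 of 5. At a level of 4.75 set from odorant receptor genes it fell to 6370. The medians of odorant-binding protein (5.29) and UDP-glycosyltransferase genes (5.49), below 5.57, were above both these levels. The mean over all probe sets of a gene, in place of its brightest, moved 9 of 49 list medians by more than their SD over arrays, to 8.87 for testis TAFs, 6.96 for meiotic cell cycle, 8.84 for individualization, 6.17 for Y-linked fertility, 10.41 for chaperones, 7.90 for muscle, 4.66 for the opsin gene, 4.02 for homeotic and segmentation and 4.77 for neuronal genes, and 13 of 201 genes, among them bol (6.96) and Taf12L (7.49). Without replicates 1, 3 and 4, chosen after seeing the data for their gut enzyme signal, 87 probe sets had an SD of 1 or more, with 2 arrays left, and 11 list medians moved, to 8.47 for general TAFs and TFII factors, 13.83 for sperm tail, 10 for tubulins, 7.60 for dyneins and kinesins, 10.86 for the general proteasome, 11.73 for mitochondrial import, 10.97 for ribosomal protein paralogs, 9.02 for mitochondrial ribosomal proteins, 6.05 for cytochrome P450, 4.06 for gustatory receptors and 4.2 for salivary glue genes. Without replicates 2 and 3, likewise chosen, the count was 189. Signals near background have no order, and 5 arrays limit the precision of each SD.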
